A study of Mus musculus with 2 samples.

Results

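Transcripts of 3 growth factor axes, those of platelet-derived growth factor (PDGF), insulin-like growth factor 1 (IGF1) and hepatocyte growth factor (HGF), were measured by bulk RNA-seq in 2 mouse rhabdoid tumors (RT), which are malignant tumors that arise when cells lose SMARCB1, a protein of the SWI/SNF complex that repositions nucleosomes. The 10 genes were chosen by name, as kinases known to matter in RT and the ligands around them, and comprised the ligands Pdgfa, Pdgfb, Pdgfc, Pdgfd, Igf1 and Hgf and the receptor tyrosine kinases Pdgfra, Pdgfrb, Igf1r and Met. All 10 were found by symbol among the 55416 genes of the count table, and all 10 lay above the floor of 3 counts in both libraries. Both tumors came from Dppa3-cre::Smarcb1 Fl/+ mice on a C57BL/6 background. In these mice Cre is knocked in at Dppa3, a gene active in primordial germ cells, and 1 Smarcb1 allele is floxed while the other is wild type. The labels place 1 tumor inside the skull at the trigeminal nerve (intracranial) and 1 outside it in the maxillary area (extracranial), and they assign both to the MYC subgroup. Each location thus had 1 library from 1 tumor, the ages of the mice were not given in the sources used here, and normal tissue was not analysed here.

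Receptor tyrosine kinases span the cell membrane, act as pairs once their ligand is bound and pass the signal to the RAS-ERK and PI3K-AKT pathways. PDGF ligands are dimers that act on the alpha receptor (Pdgfra) and the beta receptor (Pdgfrb), and they are best known as growth factors of mesenchymal cells, fibroblasts and pericytes. IGF1 acts on Igf1r, a relative of the insulin receptor, and is held or released by a family of IGF binding proteins. HGF is made mostly by mesenchymal cells and activates MET, which is found mostly on epithelial cells. Receptor tyrosine kinases of this kind have been studied as dependencies of RT cells.

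Counts summed to 34545846 in the intracranial library and 26915696 in the extracranial library, and levels are given as CPM, that is, counts per 1000000 counts of the scaled library. The floor, 3 counts, lay at 0.0863 CPM in the intracranial and 0.112 CPM in the extracranial library. Smarcb1 itself was measured at 365 counts (10.5 CPM) in the intracranial and 530 counts (19.8 CPM) in the extracranial library, which cannot be read as a loss or retention without a normal tissue. Intervals given below are exact 95% intervals (Clopper-Pearson) of a count or a pair of counts. They cover counting error only, and with 1 library per location none of the differences has a replicate check. No molecular identifiers were stated, so PCR copies cannot be set aside and could make the intervals too narrow. Ratios compare these 2 libraries and not the 2 locations. The intracranial library stood apart by its epithelial transcripts, although its label names a nerve: Krt13, a keratin of squamous epithelium, had 366709 counts there against 5 in the extracranial library, and Krt4 had 199691 against 9. The 9 epithelial markers together reached 19343 CPM in the intracranial and 2.20 CPM in the extracranial library. Sox10, a marker of Schwann cells, had 43 counts in the intracranial and 0 in the extracranial library.

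Among the PDGF ligands, Pdgfc stood apart. Pdgfc (ENSMUSG00000028019) encodes a ligand of the alpha receptor that is secreted with a CUB domain and has to be cut before it binds. It had 294 counts in the intracranial library, which is 8.46 CPM (7.52 to 9.49), and 2456 counts in the extracranial library, which is 91.8 CPM (88.2 to 95.5). The level was thus 10.8-fold higher in the extracranial library, with a log2 ratio of 3.44 (3.26 to 3.62), and it was the member with the ratio farthest from 0. Pdgfa (ENSMUSG00000025856), the classical ligand of the alpha receptor, had 1168 counts (33.6 CPM, 31.7 to 35.6) and 837 counts (31.3 CPM, 29.2 to 33.5). Its log2 ratio of -0.10 had an interval of -0.23 to 0.03, so a difference in Pdgfa was not detectable beyond counting error. Pdgfb (ENSMUSG00000000489), which binds both receptors and is made by endothelium and platelets, had 1057 and 1276 counts, or 30.4 and 47.7 CPM. Its log2 ratio was 0.65 (0.53 to 0.77). Pdgfd (ENSMUSG00000032006), the second ligand with a CUB domain and a ligand of the beta receptor, was sparse at 66 and 83 counts, or 1.90 CPM (1.47 to 2.42) and 3.10 CPM (2.47 to 3.84). Its log2 ratio of 0.71 carried a wide interval of 0.22 to 1.20.

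Per kilobase of exon, which is the scale on which levels of different genes can be set side by side, the makeup of the PDGF ligands therefore differed. In the intracranial library Pdgfa made up 53.0% of the summed level of the 4 ligands, Pdgfb 35.9%, Pdgfc 8.17% and Pdgfd 2.96%. In the extracranial library Pdgfc was the leading ligand with 44.5%, followed by Pdgfb with 28.3%, Pdgfa with 24.8% and Pdgfd with 2.43%. The summed level was 20.4 and 40.5 CPM per kilobase, a ratio of 1.99. Pdgfc was 6.48-fold below Pdgfa (5.70 to 7.39) in the intracranial library and 1.80-fold above it (1.66 to 1.95) in the extracranial library. The ratio of Pdgfc to Pdgfa thus shifted 11.7-fold (10.01 to 13.6) between the libraries, a value that needs neither scaling nor gene length. Pdgfa was 1.47-fold above Pdgfb (1.36 to 1.60) in the intracranial library and 1.14-fold below it (1.05 to 1.25) in the extracranial library. By contrast, Pdgfd was 12.1-fold below Pdgfb in the intracranial and 11.7-fold below it in the extracranial library, and the shift of 1.04 had an interval of 0.737 to 1.48.

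Both PDGF receptors were abundant and they differed from each other. Pdgfra (ENSMUSG00000029231) had 9417 counts in the intracranial library, which is 271.0 CPM (265.6 to 276.5), and 3686 in the extracranial library, which is 137.7 CPM (133.3 to 142.3). The log2 ratio was -0.98 (-1.03 to -0.92). The library with more Pdgfc transcript thus had less transcript of its receptor. Pdgfrb (ENSMUSG00000024620), a marker of pericytes and other mural cells as well as mesenchyme, had 8827 counts (254.0 CPM, 248.8 to 259.4) and 7505 counts (280.5 CPM, 274.2 to 286.9). Its log2 ratio of 0.14 (0.10 to 0.19) was among the smallest of the 10 genes. Pdgfrb was the higher receptor per kilobase in both libraries, 1.72-fold above Pdgfra (1.67 to 1.77) in the intracranial and 3.73-fold (3.58 to 3.88) in the extracranial library. The order in the intracranial library depended on the length used, since the ratio of Pdgfra to Pdgfrb there was 0.847 per kilobase of the longest transcript and 1.07 with no length. The ratio of Pdgfra to Pdgfrb, whatever the length, was 2.17-fold lower (2.07 to 2.28) in the extracranial library.

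For the IGF1 axis the ligand and the receptor differed in opposite directions. Igf1 (ENSMUSG00000020053) had 846 counts in the intracranial library, or 24.3 CPM (22.7 to 26.0), and 2018 counts in the extracranial library, or 75.4 CPM (72.2 to 78.8). It was 3.10-fold higher in the latter, with a log2 ratio of 1.63 (1.51 to 1.75). Igf1r (ENSMUSG00000005533) had 2590 counts (74.5 CPM, 71.7 to 77.5) and 1228 counts (45.9 CPM, 43.4 to 48.5), a log2 ratio of -0.70 (-0.80 to -0.60). Per kilobase, Igf1 was 1.81-fold below its receptor (1.67 to 1.95) in the intracranial library and 2.79-fold above it (2.59 to 2.99) in the extracranial library, a shift of 5.03-fold (4.52 to 5.60). The insulin receptor gene Insr differed less, with 1043 and 1021 counts and a log2 ratio of 0.35 (0.22 to 0.47). Igf1r was 2.03-fold above Insr (1.89 to 2.19) in the intracranial library, while in the extracranial library their ratio of 0.985 had an interval of 0.905 to 1.07. Igf2, the fetal growth factor that also binds Igf1r, had 0 counts in the intracranial and 1 count in the extracranial library, with upper limits of 0.106 and 0.208 CPM. With Igf2 set to the floor of 3 counts, the ratio of Igf1 to Igf2 per kilobase was 163 in the intracranial library. The lower limit from the measured counts, without the floor, was 132. Of the pair, only Igf1 was measured above the floor.

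In the HGF axis the receptor carried the difference. Met (ENSMUSG00000009376) had 1145 counts in the intracranial library, which is 33.0 CPM (31.1 to 34.9), and 234 counts in the extracranial library, which is 8.74 CPM (7.66 to 9.94). The level was 3.77-fold higher in the intracranial library, with a log2 ratio of -1.91 (-2.12 to -1.71), and it was the member farthest from 0 on that side. Hgf (ENSMUSG00000028864) was low in both, at 133 counts (3.83 CPM, 3.20 to 4.54) and 156 counts (5.83 CPM, 4.95 to 6.82), with a log2 ratio of 0.61 (0.26 to 0.95). Ligand and receptor thus again lay on opposite sides of 0. Hgf was 8.06-fold below Met per kilobase (6.73 to 9.71) in the intracranial library. In the extracranial library the order of the 2 genes depended on the length used, since Hgf was 1.40-fold below Met per kilobase of summed exon and at a ratio of 1.31 per kilobase of the longest transcript. The shift of the ratio between the libraries, which needs no length, was 5.73-fold (4.34 to 7.59). The ratio of Met to Igf1r per kilobase was 0.967 (0.901 to 1.04) in the intracranial library, where the longest transcript as length gave 0.741, and 0.417 (0.361 to 0.480) in the extracranial library. It was thus 2.32-fold lower (1.98 to 2.72) in the latter whatever the length.

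The start regions of the receptor and ligand genes that lay farthest apart between the libraries, Pdgfc, Igf1 and Met, and of Pdgfra, the receptor of Pdgfc, are shown so that their letters can be compared. They and the motifs were chosen after the values had been seen. Each is 300 bases around the annotated start, 250 before and 50 after, from RefSeq on build GRCm38.p6, whereas the reads had been aligned to GRCm39. Capitals mark matches on either strand to the GC box GGGCGG, the E-box CACGTG, the TATA box TATAAA, the sequence CCAAT and the AP-1 site TGANTCA. No matches overlapped in these 4 sequences.
Pdgfc, chr3:81036166-81036465, plus strand: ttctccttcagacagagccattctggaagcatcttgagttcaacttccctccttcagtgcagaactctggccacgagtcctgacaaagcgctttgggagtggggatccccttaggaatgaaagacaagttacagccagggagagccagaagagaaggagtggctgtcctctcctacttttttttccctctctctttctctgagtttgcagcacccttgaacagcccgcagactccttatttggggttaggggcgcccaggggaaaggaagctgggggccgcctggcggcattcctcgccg
Pdgfra, chr5:75152001-75152300, plus strand: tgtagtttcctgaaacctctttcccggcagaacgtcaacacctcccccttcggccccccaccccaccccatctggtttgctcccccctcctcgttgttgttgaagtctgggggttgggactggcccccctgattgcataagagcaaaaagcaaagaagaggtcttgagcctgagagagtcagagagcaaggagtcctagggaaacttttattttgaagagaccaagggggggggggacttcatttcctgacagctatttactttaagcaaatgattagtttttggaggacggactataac
Igf1, chr10:87860861-87861160, plus strand: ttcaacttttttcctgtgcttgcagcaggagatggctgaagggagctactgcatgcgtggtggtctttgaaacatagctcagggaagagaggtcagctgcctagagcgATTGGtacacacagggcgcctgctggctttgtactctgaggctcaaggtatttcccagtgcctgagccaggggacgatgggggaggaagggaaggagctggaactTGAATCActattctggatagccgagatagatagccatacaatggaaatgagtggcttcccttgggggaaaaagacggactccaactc
Met, chr6:17463707-17464006, plus strand: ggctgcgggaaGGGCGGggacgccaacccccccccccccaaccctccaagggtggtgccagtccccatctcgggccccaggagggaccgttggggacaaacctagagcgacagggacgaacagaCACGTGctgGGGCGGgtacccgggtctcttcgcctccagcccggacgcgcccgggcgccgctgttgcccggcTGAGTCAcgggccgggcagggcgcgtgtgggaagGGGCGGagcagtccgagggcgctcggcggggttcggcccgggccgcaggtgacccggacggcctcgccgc

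The Met region was made of 75.7% G and C and held 34 CpG dinucleotides, 0.794 times the number its base content would give. Those of Pdgfc, Igf1 and Pdgfra held 8, 6 and 5, with ratios of 0.353, 0.307 and 0.256, against a median of 0.384 over 32851 promoters of the same length. Igf1r, with 48 CpG and a ratio of 1.11, was richer still, and both annotated starts of Pdgfa were rich as well, with 24 and 37 CpG. In the Met region 3 GC boxes, 1 E-box and 1 AP-1 site were found, in that of Igf1 1 CCAAT and 1 AP-1 site, and in those of Pdgfc and Pdgfra no match. Of all promoters, 35.7% held a GC box, 7.15% an E-box, 13.6% a TATA box, 37.4% CCAAT and 7.81% an AP-1 site. A match describes the letters and not a bound site. Of the 10 genes, 8 had an entry, and Pdgfb and Pdgfrb are named only.

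**Figure D1:**
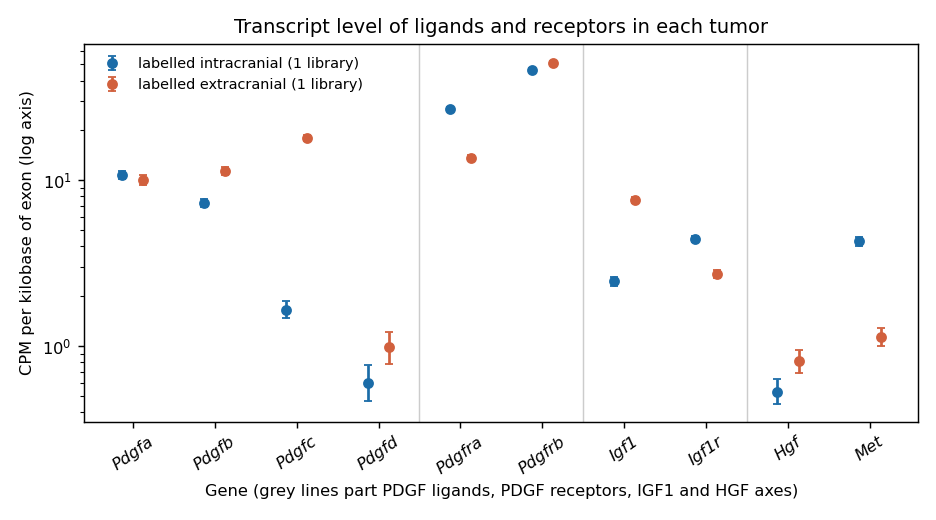
Level of the 10 genes in CPM per kilobase of exon on a log axis, with blue points for the library labelled intracranial and orange points for the library labelled extracranial (1 library each). Bars are exact 95% counting intervals. Pdgfrb is the highest gene in both libraries, and the points of Pdgfc, Igf1 and Met lie farthest apart.

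Ordered by level per kilobase, Pdgfrb (46.4) led the intracranial library, followed by Pdgfra (27.04), Pdgfa (10.8), Pdgfb (7.31), Igf1r (4.44), Met (4.29), Igf1 (2.46), Pdgfc (1.66), Pdgfd (0.602) and Hgf (0.533 CPM per kilobase). The intervals of Igf1r and Met overlapped, as did those of Pdgfd and Hgf. In the extracranial library Pdgfrb (51.2) was followed by Pdgfc (18.0), Pdgfra (13.7), Pdgfb (11.5), Pdgfa (10.03), Igf1 (7.61), Igf1r (2.73), Met (1.14), Pdgfd (0.983) and Hgf (0.811 CPM per kilobase). There the intervals of Met and Pdgfd overlapped, and those of Pdgfd and Hgf. Pdgfc took place 8 of 10 in the intracranial and place 2 in the extracranial library, and Pdgfrb and Hgf held the first and the last place in both.

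A gene was called where the whole counting interval of its ratio lay beyond 4-fold, and under a looser rule beyond 2-fold. Beyond 4-fold lay 1 of the 10 genes, Pdgfc, against 7.19% of the 21977 genes that had at least 10 counts. Split by direction, 1.78% of those genes were called as higher in the extracranial and 5.41% as higher in the intracranial library. Beyond 2-fold lay 3 of 10, with Pdgfc and Igf1 higher in the extracranial and Met higher in the intracranial library. The background was 15.6% of all genes, 5.86% on the extracranial and 9.77% on the intracranial side. All 10 genes had more than 100 counts over both libraries, and among the 15582 genes with 100 or more counts the shares were much the same, 7.41% and 15.8%. The share of members called is thus no result about these axes as a set. The interval lay wholly above 0 for 6 genes, wholly below 0 for 3 (Pdgfra, Igf1r and Met), and spanned 0 for Pdgfa alone. Of all genes tested, the interval lay above 0 for 29.2%, below 0 for 32.2% and spanned 0 for 38.6%, and of the 15582 genes with 100 or more counts it lay above 0 for 5556, below 0 for 5617 and spanned 0 for 4409. The median log2 ratio of the 10 genes was 0.37, against -0.04 for all genes tested. The 3 genes below 0 were all receptors, and of the 6 ligands all but Pdgfa lay above 0. The remaining receptor, Pdgfrb, lay above 0 at 0.14 (0.10 to 0.19), so the receptors did not share 1 direction.

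**Figure D2:**
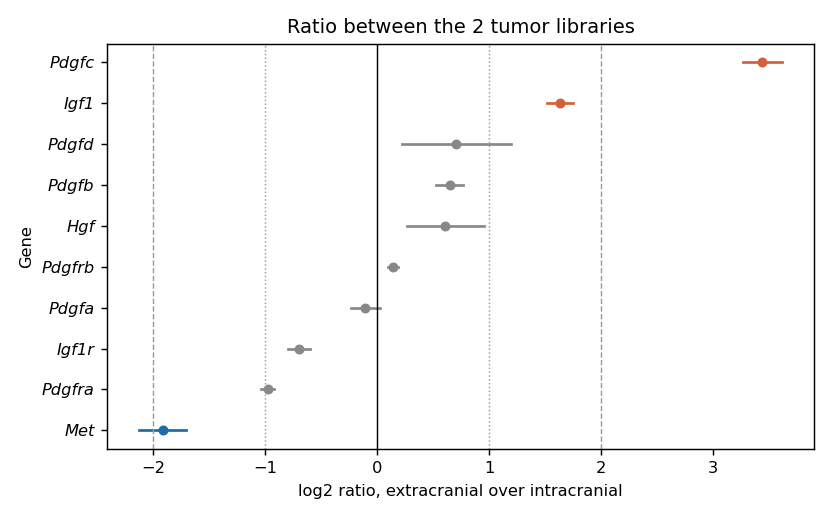
Log2 ratio, extracranial over intracranial, of the 10 genes with exact 95% counting intervals. Dotted lines mark 2-fold and dashed lines 4-fold; orange and blue genes have the whole interval beyond 2-fold toward the extracranial and the intracranial library. Pdgfc (3.44) lies beyond the 4-fold line, and Met (-1.91) is the lowest.

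**Figure D3:**
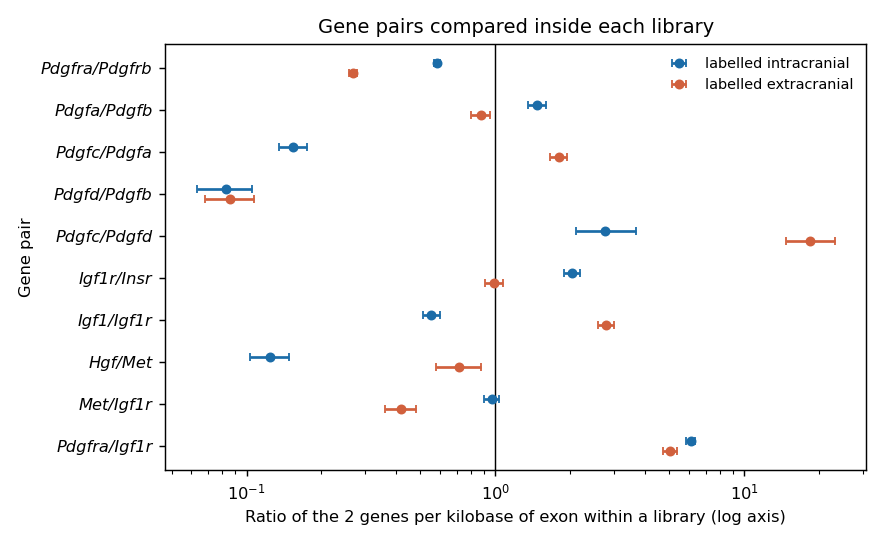
Ratio of 2 genes per kilobase of exon inside each library on a log axis, with exact 95% counting intervals, blue for the library labelled intracranial and orange for the library labelled extracranial. Pdgfa/Pdgfb, Pdgfc/Pdgfa and Igf1/Igf1r lie on opposite sides of 1 in the 2 libraries, whereas the intervals of Pdgfd/Pdgfb overlap.

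To place the receptors among genes of the same kind, 58 receptor tyrosine kinases were ranked by CPM per kilobase. Pdgfrb ranked 3 in both libraries, where the longest transcript as length gave rank 4. In the intracranial library it lay between Csf1r, the receptor of macrophage growth factor (65.8), and Fgfr1 (38.2 CPM per kilobase). In the extracranial library it lay between Axl, a receptor of GAS6 (109.8), and Fgfr1 (38.9 CPM per kilobase). Pdgfra ranked 5 in the intracranial library, between Fgfr1 and the collagen receptor Ddr2 (24.9 CPM per kilobase). In the extracranial library it ranked 6, below Ddr2 (23.8) and above the WNT co-receptor Ryk at 13.4 CPM per kilobase, whose interval overlapped that of Pdgfra. Igf1r ranked 16 in both, next to Epha2 (5.15) and Met in the intracranial and to Insr (2.78) and Ephb3 (2.57 CPM per kilobase) in the extracranial library. Met ranked 17 in the intracranial and 25 in the extracranial library, where its neighbours were Ret (1.20) and Epha3 (0.851 CPM per kilobase). In the extracranial library the intervals of Igf1r, Insr and Ephb3 overlapped, as did those of Met and Ret, so these ranks are not firm. Of the 54 other kinases, 45 had 10 or more counts, and their median log2 ratio was -0.32. Of these 45, the interval lay above 0 for 14, below 0 for 23 and spanned 0 for 8. The shares of all genes tested were 29.2%, 32.2% and 38.6%. Pdgfra, Igf1r and Met lay on the side that held more of the family, and Pdgfrb lay on the other side.

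**Figure D4:**
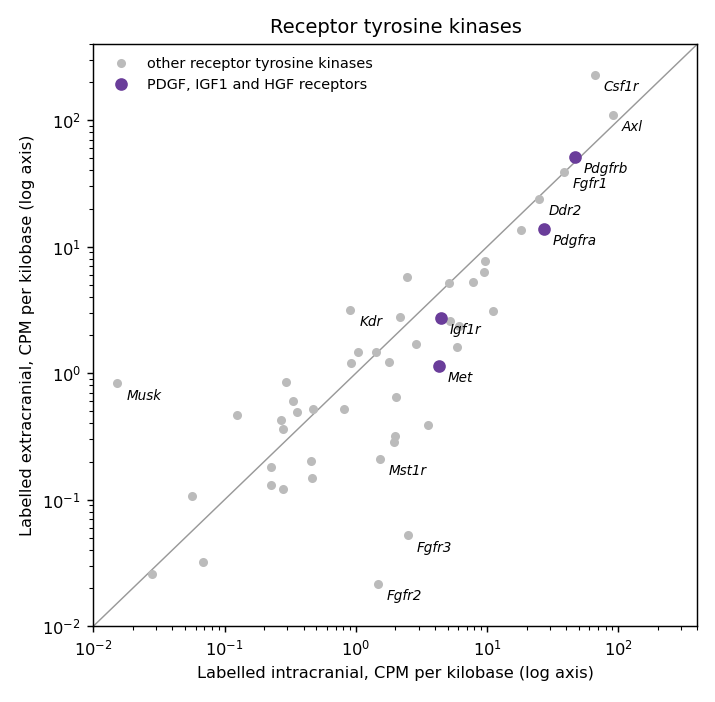
Receptor tyrosine kinases with 10 or more counts, in CPM per kilobase of exon on log axes, intracranial library on the horizontal and extracranial library on the vertical axis. The grey line marks equal levels. Pdgfrb lies close to the line at rank 3, Pdgfra, Igf1r and Met lie below it, and Fgfr2 and Fgfr3 are the points farthest below.

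Other genes that release, hold or regulate the ligands were taken from lists chosen by known function, with earlier results of these data known. Of the 19 partners of the IGF axis, 17 had 10 or more counts, 5 were beyond 4-fold toward the intracranial library and 0 toward the extracranial library, against 5.41% and 1.78% of all genes tested. The binding proteins did not share 1 direction. Igfbp6, which prefers IGF2, was by far the most abundant gene of the list in the intracranial library, with 29765 counts against 4130 (log2 ratio -2.47, -2.52 to -2.43). Igfbp2 had 1658 and 115 counts (-3.47, -3.76 to -3.20) and Igfbp5 2565 and 176 counts (-3.49, -3.72 to -3.27). Igfbp3, the main carrier of IGF1 in blood, was higher in the extracranial library with 5712 and 9213 counts (1.07, 1.02 to 1.11). Igfbp4 followed with 4446 and 7131 counts (1.06, 1.004 to 1.11) and Igfbp7 with 2784 and 5343 counts (1.32, 1.25 to 1.38). Igfbp1 had 0 counts in both. Pappa, a protease that frees IGF1 from binding proteins, had 402 and 40 counts (-2.95, -3.46 to -2.48), and Stc2, an inhibitor of that protease, 332 and 38 counts (-2.75, -3.27 to -2.26). The protease and its inhibitor were thus both lower in the extracranial library, in which Igf1 was higher. The median log2 ratio of the list was 0.09.

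Of the 14 partners of the HGF axis, 5 were beyond 4-fold toward the intracranial library and 1 toward the extracranial library, beside the same 5.41% and 1.78% of all genes. St14, a membrane protease that activates HGF and PDGF-D, had 677 and 21 counts (-4.63, -5.34 to -4.01). Its inhibitors Spint1 and Spint2 were lower with it in the extracranial library, with 625 and 73 counts (-2.72) and 1295 and 62 counts (-4.01). Mst1r, the closest relative of Met, had 264 and 28 counts (-2.86, -3.48 to -2.30), and its ligand Mst1 had 69 and 6 counts (-3.15, -4.64 to -1.95). Itgb4, an epithelial integrin subunit that can pair with Met, had 3252 and 229 counts (-3.45). On the other side, Lrig1, a membrane protein that limits receptor tyrosine kinases including Met, had 348 and 1224 counts (2.19, 2.02 to 2.37). The phosphatase gene Ptprj had 2166 and 4028 counts (1.27), and Hpn, a protease that can activate HGF, 73 and 261 counts (2.21). Plau, which activates HGF and PDGF-D, was high in both with 392.3 and 527.6 CPM (0.43, 0.39 to 0.46). Cd44, which can present HGF to Met, had 472.1 and 245.0 CPM (-0.95). The median of the list was -0.62. The genes of this list that were higher in the intracranial library stood beside the epithelial markers given above, and the part of epithelium in them was not tested.

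**Figure D5:**
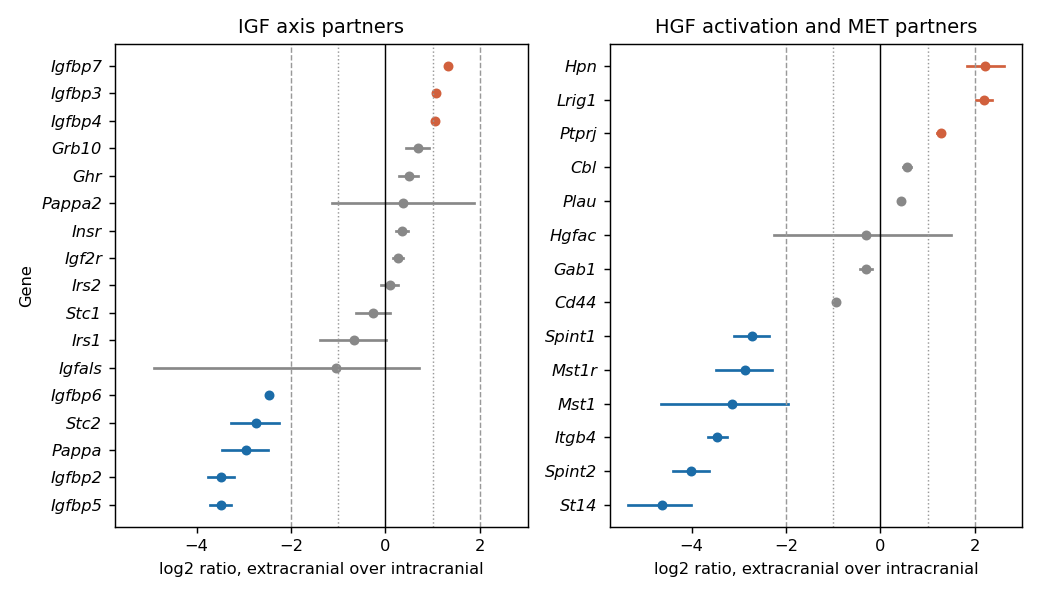
Log2 ratio, extracranial over intracranial, of the IGF axis partners (left) and the HGF and MET partners (right) with 10 or more counts, with exact 95% counting intervals. Dotted lines mark 2-fold and dashed lines 4-fold. Igfbp2, Igfbp5, Igfbp6, Pappa and Stc2 form the lower group on the left, and St14 (-4.63) is the lowest gene on the right.

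Of the 7 genes that activate or bind PDGF, 1 was beyond 4-fold, St14, beside 7.19% of all genes. Plat, the protease that cuts PDGF-C into its active form, had 4735 and 1804 counts (-1.02, -1.09 to -0.94), so that it was lower in the library in which Pdgfc was higher. Nrp1, a co-receptor that binds several growth factors, had 810 and 2058 counts (1.72, 1.60 to 1.84), and Pdgfrl, a receptor-like gene, 2031 and 667 counts (-1.23, -1.36 to -1.10). Sparc, a matrix protein that binds PDGF, was the most abundant at 2368 and 1702 CPM (-0.48).

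Downstream of the receptors, the 26 shared signalling genes differed little. None had an interval beyond 2-fold, as 15.6% of all genes did, their log2 ratios ran from -0.96 for Src to 0.85 for the adaptor Grb2, and the median was -0.02. Of the most abundant, Akt1 was measured at 164.2 and 209.0 CPM (0.35) and Mapk3, which encodes ERK1, at 105.3 and 118.9 CPM (0.18). Among 15 genes that respond to ERK or limit it, the interval lay above 0 for 11 and below 0 for 3, against 29.2% and 32.2% of all genes tested, and the median was 0.60. Fos had 997 and 2035 counts (1.41, 1.30 to 1.52), Phlda1 372 and 956 (1.74, 1.56 to 1.92) and the ERK inhibitor Spry1 456 and 1018 (1.54, 1.37 to 1.70). Dusp4, an ERK phosphatase, was the only gene of the 15 beyond 4-fold, beside 7.19% of all genes tested. It had 110 and 11 counts (-2.95, -3.99 to -2.05). The highest per kilobase was Ccnd1, which encodes cyclin D1, at 362.8 and 228.3 CPM (-0.67). Transcripts of this kind do not report the activity of a given receptor.

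Bulk tissue holds several cell types, and in such samples fewer cells of a type and less RNA per cell cannot be told apart. Macrophages are a known source of Igf1, and all 9 macrophage markers were higher in the extracranial library, with a summed level of 2946 and 8482 CPM (log2 ratio 1.53), the most abundant being C1qa and C1qc. The log2 ratio of Igf1 was 1.63. Endothelium makes Pdgfb, and all 8 endothelial markers were higher in the extracranial library, with sums of 198.8 and 342.0 CPM (0.78). Without Cldn5, the most abundant of them, the log2 ratio of the sum was 1.16. The log2 ratio of Pdgfb was 0.65. Epithelium carries Met, and all 9 epithelial markers were higher in the intracranial library, led by Krt13 and Krt4. In the extracranial library these markers had from 0 counts (Krt5 and Trp63) to 26 counts (Cdh1), with Epcam at 1 and Krt14 at 2, and Met had 234 counts. Beside Pdgfrb, 5 pericyte and smooth muscle markers were higher in the extracranial library, among them Rgs5 (1.95) and Kcnj8 (2.57), and 3 were lower, Notch3 (-2.15), Myh11 (-2.08) and Acta2 (-0.81). Their sums were 212.3 and 363.0 CPM. Beside Pdgfra and Pdgfc, 5 fibroblast markers were higher in the extracranial library, led by Lum (4.54) and Dcn (2.87), and 3 lower, Dpt (-2.39), Pi16 (-1.85) and Col1a1 (-0.33), with sums of 3011 and 4749 CPM. The part of these cell types in the results was not tested.

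The other marker lists bear on the labels and on further sources of these genes. Of the Schwann cell markers, which a tumor at a nerve could hold, Pmp22 had 6168 and 3623 counts and Sox10 43 and 0. By their intervals, all 6 markers of that list were higher in the intracranial library. Neuron markers summed to 66.2 and 67.6 CPM, but 3 of the 6 were higher in the extracranial and 3 in the intracranial library, with log2 ratios from -2.85 to 1.74. Platelets store PDGF, and their markers summed to 146.2 and 107.4 CPM, mostly through Pf4, with Gp9 at 8 and 0 counts. Skeletal muscle markers summed to 37.4 and 9.38 CPM, with Myod1 at 0 in both. Of the markers of oligodendrocyte precursors, a cell type known for Pdgfra, Olig2 had 0 counts in both and Olig1 1 and 0, and the sum of 64.2 and 120.8 CPM came mostly from Cspg4, which pericytes share. By their intervals, 2 of the 5 markers were higher in the extracranial library, with log2 ratios up to 2.59, and 1 was higher in the intracranial library. Without Cspg4 the log2 ratio of the sum was 2.14. Neutrophil markers summed to 694.2 and 58.5 CPM, in the intracranial library mostly through S100a8 and S100a9, which squamous epithelium can make too, with Mpo at 0 in both and Elane at 1 and 0. They did not share 1 direction. By its interval, 1 of the 6 was higher in the extracranial library (log2 ratio 1.53) and 2 were higher in the intracranial library.

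Counting could also touch some members. Whether the counting used the strand was not stated, and exons of Pdgfa share 813 bases with the antisense gene 6330403L08Rik, which had 179 and 106 counts. The genes that overlap exons of Pdgfra, Pdgfc and Hgf had from 0 to 14 counts in each library, and those of the other members overlapped no annotated exon.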

How the data were processed

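Poly(A) RNA of each tumor had gone into a strand-specific library read from 1 end, and the authors aligned the reads to GRCm39 with STAR and tallied them over Ensembl genes with featureCounts (per the labels and the methods). The deposited table holds raw counts of 55416 genes in 1 column per tumor, without normalization. The use of strand and of reads with several alignments was not given in the sources used here.

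Symbols, exon lengths and overlaps came from GENCODE release 21 of the mouse, which matched 52135 IDs (94.1%) and is older than the annotation used for counting. Scaling of the libraries used TMM factors from edgeR 4.0.16 (R 4.3.3). CPM were divided by summed exon length where genes are compared. Levels were given Clopper-Pearson intervals and ratios the conditional exact binomial interval, computed with scipy 1.17.1. Shifts of a gene pair were given Fisher's conditional interval. A gene was called where its interval lay wholly beyond 4-fold or, under the second rule, 2-fold, among genes with 10 or more counts over both libraries. Counts of 3 or fewer were set to 3 for ratios. With 1 library per location no test across genes was available, so no p-value is given. The procedure was tested on simulated counts that held counting error only, so the test does not cover PCR copies or variation between tumors.

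Groups followed the localization label. Named genes comprise the 10 members, and of the lists those beyond 2-fold, the most abundant, and for kinases the neighbours in rank. The members and lists were chosen with earlier results of these data known. Alternatives comprised DESeq2 1.42.0 size factors, total counts, upper quartile scaling, other count minimums, protein-coding genes, other folds, a prior count and other lengths. Some marker genes and the sum of their list are not reported here.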

Additional observations from a re-analysis of the deposited data

How the results depend on the processing

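No paired analysis was possible because a location comprised a single tumor, and for the same reason no library could be left out. The other scalings moved every log2 ratio by -0.02 to 0.04, and all 30 log2 ratios and 60 CPM values of the members under them stayed inside their counting intervals. The median of the members stayed within the width of a counting interval under its 7 alternatives. Members called as higher in the extracranial library numbered 1 in the main setting and 2 with the interval or the ratio beyond 2-fold, and those higher in the intracranial library 0 and 1. The latter limits are looser by construction. The median of the shared signalling genes changed sign to 0.0188 with upper quartile scaling. The neuron marker sum changed sign to a log2 ratio of -1.19 without Stmn2. Between genes, the length decided some orders: with no length, the ratio of Pdgfra to Pdgfrb in the intracranial library was 1.07 and that of Igf1r to Insr in the extracranial library 1.20, and per kilobase of the longest transcript that of Hgf to Met was 1.31. With no length, Igf1r ranked 9 among the kinases in both libraries. Pdgfrb then ranked 5 in the intracranial and 4 in the extracranial library, and Met 14 and 21. Depth limits Pdgfd and Hgf, whose intervals are the widest.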

Other observations

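Among the receptor tyrosine kinases outside the 3 axes, 6 of the 45 with 10 or more counts were beyond 4-fold toward the intracranial library and 1 toward the extracranial library, beside 5.41% and 1.78% of all genes tested. The FGF receptor genes Fgfr2 and Fgfr3 had 529 and 6 counts (log2 ratio -6.09, -7.54 to -4.95) and 620 and 10 counts (-5.58, -6.64 to -4.69), whereas Fgfr1 had 13111 and 10268 counts (0.02, -0.01 to 0.06). Epha1 had 484 and 41 counts (-3.18), Erbb3 415 and 51 (-2.65) and Tyro3 423 and 47 (-2.79). Mst1r was the sixth. The 6 were higher in the library that held the epithelial markers given above, and the part of epithelium in them was not tested. Musk, the agrin-dependent kinase of the neuromuscular junction, was singled out after its values were seen. It had 2 and 84 counts, with a log2 interval of 3.87 to 8.84, while the skeletal muscle markers were lower in the extracranial library.

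The 2 highest kinases of both libraries, Axl and Csf1r, were not among the members. Csf1r had 13206 and 35302 counts (1.80, 1.77 to 1.82) and is itself a macrophage marker. The vascular receptors Kdr and Tie1 had 285 and 766 counts (1.80) and 417 and 758 counts (1.24).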
